A study of Homo sapiens with 4 samples.

Results

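The set examined here holds 44 genes that act in G2 phase and mitosis. They were chosen as a list of symbols from their known roles, with earlier results of these data known. The genes were read from the rows of the gene count tables by symbol. Of these, 43 had a row among the 59050 gene symbols, and KIF23 was not analysed here. RNA-seq was performed on cells labelled HepG2, a line established from a liver tumour, in 4 libraries. The 2 control libraries came from untreated cells (0 h), which carried no agent. The 2 other libraries came from cells given doxorubicin, an intercalating drug that poisons topoisomerase II and breaks DNA, at 1 µg/ml for 24 h to induce p53. Whether the untreated cells, given as 0 h, also differed in time in culture is not stated, so time and drug cannot be told apart. The treatment tag of the treated libraries reads p53-miRNA, while the design text of the series names doxorubicin, which was followed here. The 2 libraries of each condition are described as biological replicates of 1 cell line.

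A cell enters mitosis when CDK1, bound to cyclin B, is switched on by CDC25 phosphatases and supported by PLK1 and Aurora kinases. Sister chromatids are then held back by the spindle checkpoint until every kinetochore is attached, after which CDC20 activates the ubiquitin ligase that destroys cyclin B and securin. Most of these genes are transcribed late in the cell cycle under B-MYB, FOXM1 and NF-Y, and p53 is known to lower many of them through p21 and the DREAM repressor complex, which contacts a promoter element called CHR.

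To show that element, the 100 bases before the transcription start are given for 8 of the genes, with CHR matches (TTTGAA or TTCGAA) and CCAAT boxes, the NF-Y element, in capitals. CDC20, PLK1 and CDC25B are shown because they passed a test described below, CCNB1, CCNB2 and CDK1 because they make up the kinase that drives mitosis, and ANLN and CENPE because their values went the other way or hardly moved. The sequences are RefSeq promoters on GRCh38.p14, written 5′ to 3′ on the strand of the gene, and a match to the opposite strand appears as ATTGG or TTCAAA. They lie at chr1:43358881-43358980 (CDC20, plus strand), chr16:23678789-23678888 (PLK1, plus), chr20:3796210-3796309 (CDC25B, plus), chr5:69167050-69167149 (CCNB1, plus), chr15:59105046-59105145 (CCNB2, plus), chr10:60778378-60778477 (CDK1, plus), chr7:36389762-36389861 (ANLN, plus) and chr4:103198344-103198443 (CENPE, minus). CDC25B has 4 promoters in the table and CDK1 has 2, and the one with the most matches is printed for each.
CDC20: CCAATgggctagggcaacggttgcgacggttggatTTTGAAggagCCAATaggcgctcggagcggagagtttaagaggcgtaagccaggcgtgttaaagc
PLK1: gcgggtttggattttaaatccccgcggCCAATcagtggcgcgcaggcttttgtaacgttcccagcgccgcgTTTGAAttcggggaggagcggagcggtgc
CDC25B: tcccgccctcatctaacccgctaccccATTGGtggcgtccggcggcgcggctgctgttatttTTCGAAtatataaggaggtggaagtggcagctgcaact
CCNB1: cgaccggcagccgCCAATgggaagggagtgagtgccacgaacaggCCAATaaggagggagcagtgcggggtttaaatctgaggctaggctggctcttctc
CCNB2: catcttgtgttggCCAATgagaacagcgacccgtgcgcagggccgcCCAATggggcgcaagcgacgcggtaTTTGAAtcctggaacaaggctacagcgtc
CDK1: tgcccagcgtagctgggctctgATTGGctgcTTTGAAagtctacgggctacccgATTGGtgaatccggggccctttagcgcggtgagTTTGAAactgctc
ANLN: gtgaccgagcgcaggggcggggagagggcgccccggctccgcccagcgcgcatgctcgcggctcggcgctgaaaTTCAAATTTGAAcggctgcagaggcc
CENPE: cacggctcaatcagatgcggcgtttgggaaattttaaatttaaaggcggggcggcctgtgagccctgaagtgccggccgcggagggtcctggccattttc

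A promoter of 250 bases before to 50 bases after the start was listed for 37 of the 44 genes. The table had none for FOXM1, BIRC5, TTK, AURKA, TPX2, UBE2C and BUB3. On either strand, TTTGAA or TTCGAA was found in 31 of the 37 (83.8%), against 19.5% of the 27305 genes with a promoter and 5% of 40 genes of DNA replication. CCAAT was found in 31 of the 37 (83.8%), against 39.7% of all genes and 62.5% of the DNA replication genes. Both elements were found in 27 (73%), against 7.85% of all genes and 5% of the DNA replication genes. TTCGAA reads the same on both strands, and neither element contains the other, although neighbouring matches may share letters. Of the promoters printed above, those of CDC20, PLK1, CDC25B, CCNB2 and CDK1 hold both elements in the 100 bases shown. That of ANLN holds CHR matches only. CCNB1 has CCAAT boxes but no CHR match in the stretch shown, and no CHR match in its whole window. CENPE has neither match in its whole window. Other forms of the CHR were not searched for, so a promoter without a match may still hold one. A match is a description of letters, not evidence of binding in these cells.

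The libraries held between 27572740 and 36272180 counts, and the members' sum lay between 4072 and 4773 CPM (counts divided by the library total and scaled to 1e6), so that depth did not limit most of them. Untreated replicate 2 stood apart: its correlation of log2 CPM across genes with the 3 other libraries was 0.883 to 0.887, whereas the others correlated with each other at 0.975 to 0.988. Genes that mark hepatocytes (12 listed) summed to 0.992 to 6.09 CPM per library. ALB reached at most 0.11 CPM, so the defining liver markers were absent or nearly so in cells labelled HepG2. The 6 squamous epithelial markers summed to 932 to 1594 CPM, nearly all of it KRT17, the 6 fibroblast markers to 169 to 277 CPM with COL1A2 at or near 0, and the 6 leukocyte markers to 1.02 to 1.45 CPM except in untreated replicate 2, with 19.8 CPM, mostly CD14. The part of cell identity in the results was not tested.

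The first question was whether the mitotic genes as a set were lower after 24 h of doxorubicin. The summed CPM of the 43 members came to 4773 (replicate 1) and 4373 (replicate 2) without drug, and to 4072 and 4412 with doxorubicin. By column totals the treated sums overlapped the untreated ones, since doxorubicin replicate 2 lay above untreated replicate 2. The TMM factors, the library scaling used in the 4-library fit, were 0.944 and 0.951 for the untreated libraries and 1.02 and 1.09 for the treated ones. They raise the untreated sums relative to the treated ones, so this order depends on the scaling. All 43 members passed the filter on low counts in both fits described here. With 4 libraries, the median log2 fold change of doxorubicin over untreated was -0.16 for the members and 0.013 for the 17479 genes tested, and 26 of 43 members (all genes: 49.2%) were below 0. When untreated replicate 2 was left out, the medians were -0.17 for the members and 0.054 for 18356 genes, with 29 of 43 members (all genes: 45.7%) below 0. The median of the members minus that of all genes was thus -0.18 with 4 libraries and -0.23 without untreated replicate 2. The size of this difference rests on single libraries: it was -0.051 without untreated replicate 1 and -0.081 without doxorubicin replicate 1. In bulk RNA, fewer cells in G2 or mitosis and less mitotic mRNA per cell cannot be told apart.

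**Figure D1:**
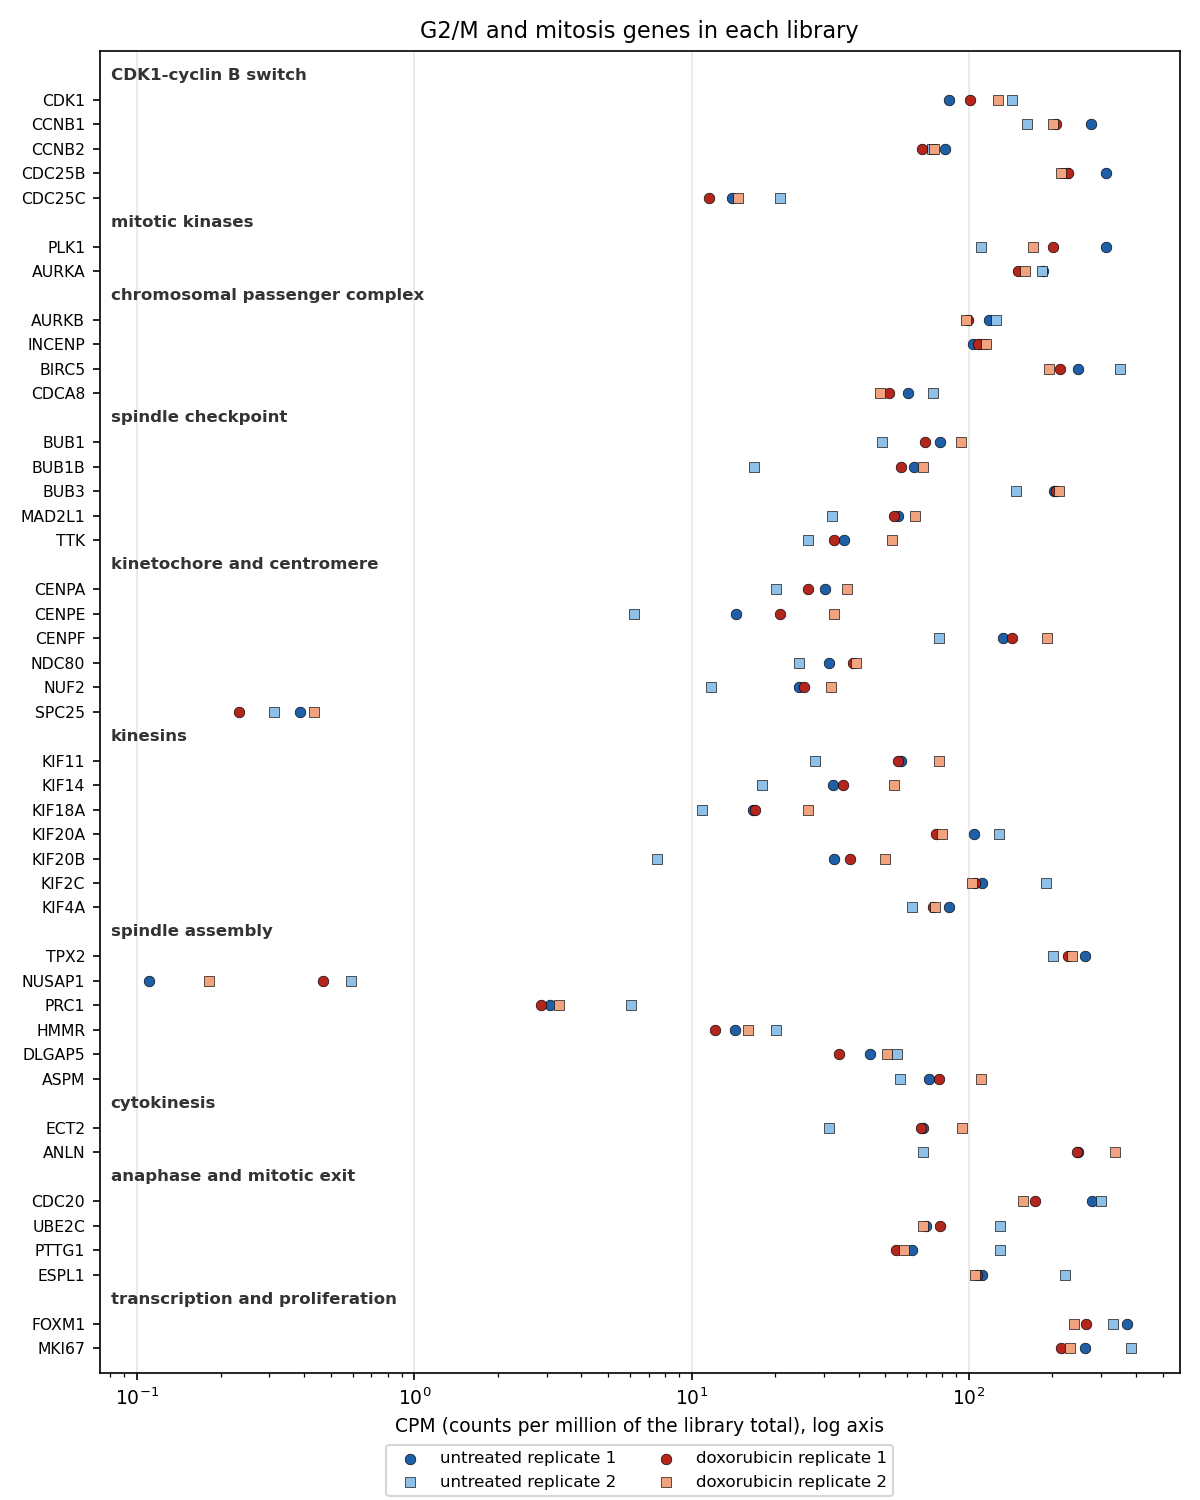
Level of the 43 members in each library, in CPM on a log axis, grouped by role, with 1 point per library (blue, untreated; red and orange, doxorubicin; circles, replicate 1; squares, replicate 2). The red and orange points of CDC20 (174 and 157 CPM) lie left of both blue ones (279 and 299 CPM), while for most spindle checkpoint genes and for ANLN the light blue square of untreated replicate 2 is the lowest point.

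Gene by gene, none of the 43 members passed the thresholds of the study's methods (an edgeR p-value below 0.05 after Benjamini-Hochberg adjustment, and an absolute log2 fold change of 1 or more) in either fit. With 4 libraries this was true of all genes, with 0 of 17479 called (0% in either direction) and the smallest adjusted p-value at 0.773 in the edgeR quasi-likelihood test, while 768 genes had an unadjusted p-value under 0.05. The paper itself, with edgeR at these thresholds, reported mRNAs changed in both directions after p53 activation. The kind of edgeR test it used is not stated. DESeq2 called 89 genes (0.246% lower, 0.263% higher), none of them a member. CDC20 was the only member with an unadjusted p-value under 0.05 in the 4-library edgeR fit (all genes, lower: 1.73%). Without untreated replicate 2, edgeR called 815 genes, 102 lower (0.556%) and 713 higher (3.88%), and 4 members, CDC20, PLK1, FOXM1 and CDC25B, were lower at an adjusted p-value under 0.05 irrespective of fold (all genes: 1.73% lower), while none was higher (all genes: 4.61%). Before adjustment, 6 members were lower at 0.05 (all genes: 6.9%) and 1 was higher (all genes: 12.2%). The lone untreated library is assumed in that fit to vary as the doxorubicin libraries do, and p-values here measure only the spread between these libraries.

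CDC20, the activator of the anaphase-promoting complex, had 279 and 299 CPM in the untreated replicates and 174 and 157 CPM in the doxorubicin replicates. Both treated libraries lay below both untreated ones, and the gap between the groups was larger than the gap within either group. The log2 fold change of CDC20 came to -0.96 (standard error 0.29) with 4 libraries, with an edgeR adjusted p-value of 0.773 and an unadjusted edgeR p-value of 0.0178. Against untreated replicate 1 alone it fell by 0.90 on the log2 scale (standard error 0.22, adjusted p-value 0.00174 in edgeR), to 0.535 times the untreated level.

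PLK1, the polo-like kinase that matures centrosomes and helps to activate CDK1, had 312 and 111 CPM in untreated cells and 201 and 171 CPM in doxorubicin-treated cells. Its untreated replicates were the extremes and enclosed both treated values, so the direction rests on which untreated library is used. On the log2 scale PLK1 stood at -0.34 (standard error 0.53) with 4 libraries and -0.89 (standard error 0.22, adjusted p-value 0.00197 in edgeR) without untreated replicate 2. Without untreated replicate 1 instead, PLK1 was higher with doxorubicin by 0.66 on the log2 scale (standard error 0.24, adjusted p-value 0.0104 in edgeR).

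FOXM1, the transcription factor that drives late cell cycle genes, had 371 and 330 CPM in untreated cells and 264 and 239 CPM in treated cells, with no overlap. FOXM1 stood at -0.63 on the log2 scale (standard error 0.28) with 4 libraries and fell by 0.71 (standard error 0.22, edgeR adjusted p-value 0.0237) without untreated replicate 2. MKI67, the proliferation antigen listed with it, had 262 and 383 CPM in untreated cells and 215 and 232 CPM in treated cells, also without overlap. Its log2 fold changes were -0.69 (standard error 0.32) with 4 libraries and -0.38 (standard error 0.22) without untreated replicate 2, neither past the edgeR test.

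Among the genes of the CDK1-cyclin B switch, CDK1 itself, the kinase, had 85.0 and 144 CPM in untreated cells and 101 and 128 CPM in treated cells, so that the treated values lay between the untreated ones. CDC25B, a phosphatase that activates it, had 314 and 222 CPM in untreated cells and 228 and 214 CPM in treated cells. The second untreated value thus lay between the treated ones in CPM, but above both with TMM scaling. CDC25B stood at -0.43 on the log2 scale (standard error 0.32) with 4 libraries and fell by 0.65 (standard error 0.22, adjusted p-value 0.0448 in edgeR) without untreated replicate 2. That p-value is near the threshold and was 0.0537 with DESeq2 and 0.108 with scaling by column totals. CCNB1, the main cyclin B, had 275 and 162 CPM against 206 and 201 CPM. Against untreated replicate 1 alone it stood at -0.58 on the log2 scale (standard error 0.22, edgeR adjusted p-value 0.0845, and 0.0466 in the edgeR likelihood ratio test). CCNB2 had 81.9 and 73.4 CPM against 68.0 and 74.6 CPM. Its log2 fold changes were -0.28 (standard error 0.31) with 4 libraries and -0.35 (standard error 0.23) without untreated replicate 2. CDC25C was low, at 11.5 to 20.8 CPM. The switch genes had a median log2 fold change of -0.28 with 4 libraries and -0.35 without untreated replicate 2.

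**Figure D2:**
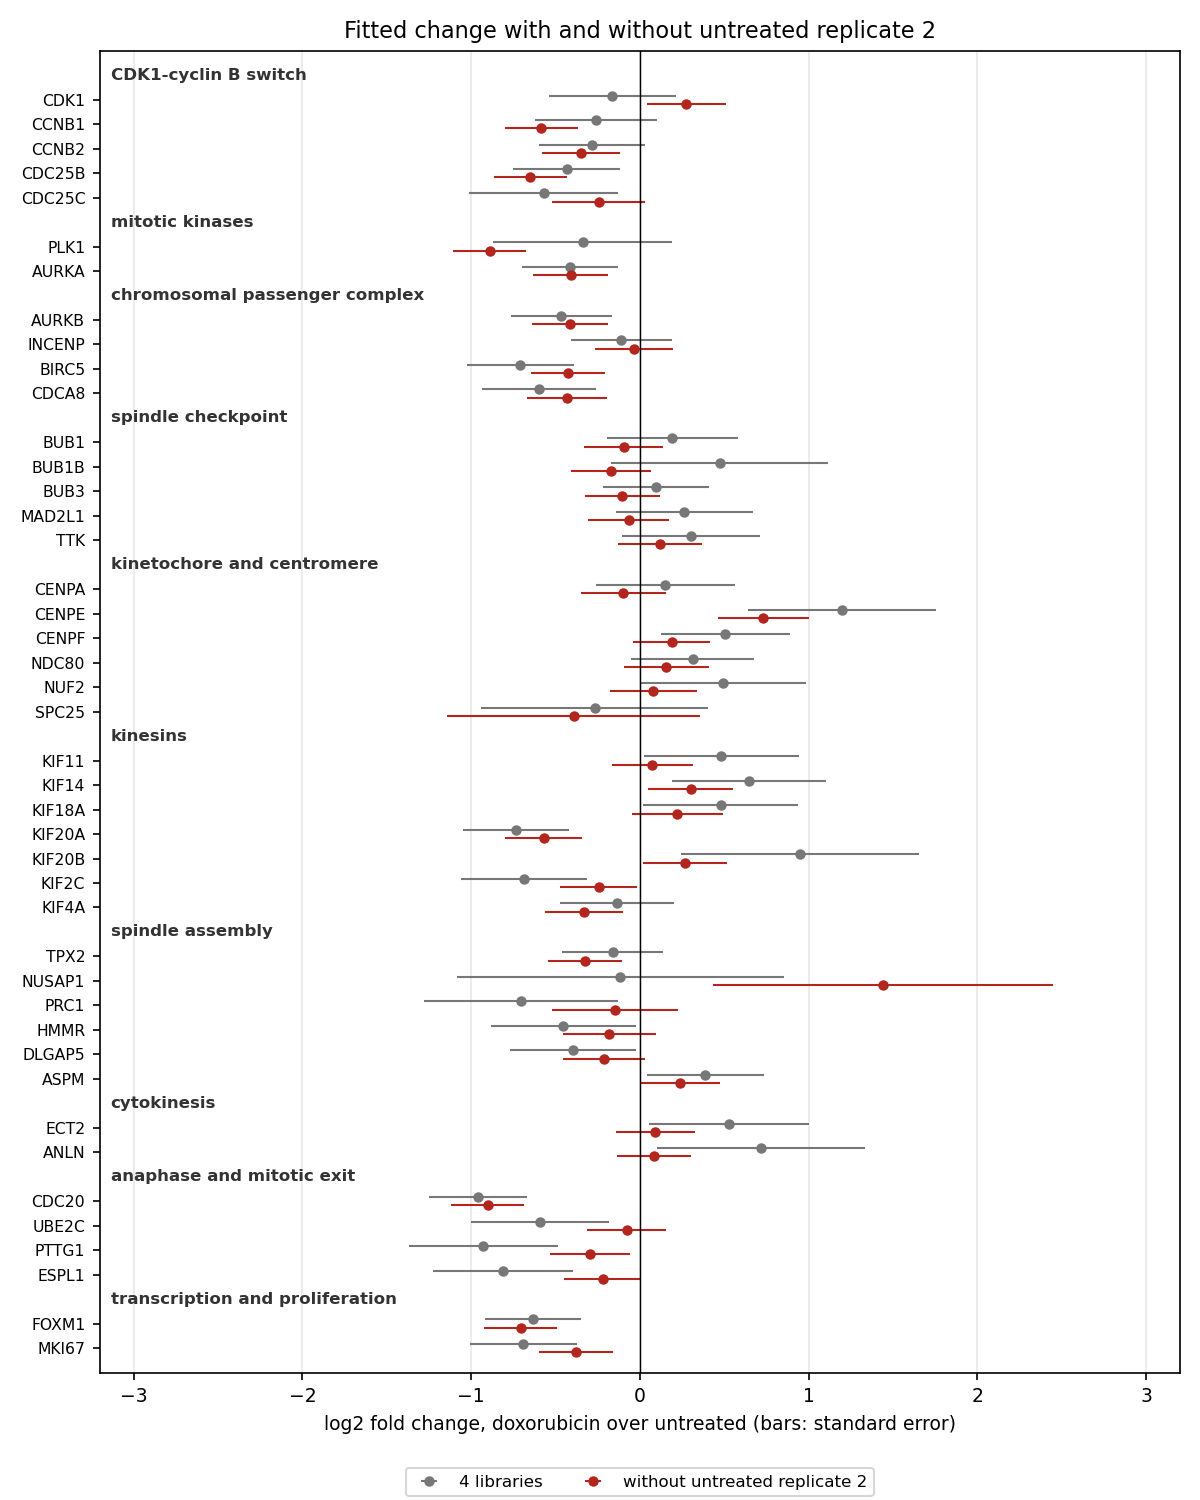
Log2 fold change of doxorubicin over untreated for the 43 members by role (points; bars, standard error of the edgeR fit), with 4 libraries in grey and without untreated replicate 2 in red. CDC20, PLK1, FOXM1 and CDC25B are lowest in red at -0.90 to -0.65, and CENPE (0.73) and the barely counted NUSAP1 (1.44) are highest.

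AURKA, which builds the spindle poles, had nearly equal untreated levels of 186 and 184 CPM and treated levels of 151 and 159 CPM. The groups did not overlap, but the edgeR test was not passed in either fit (log2 fold change -0.41 in both, standard errors 0.28 and 0.22). In the chromosomal passenger complex, which corrects faulty attachments, the kinase AURKB had 119 and 126 CPM in untreated cells and 99.1 and 98.0 CPM in treated cells. BIRC5 (survivin) and CDCA8 (borealin), which place AURKB on the centromere, likewise showed both treated libraries below both untreated ones. The scaffold INCENP lay at 103 to 115 CPM with the groups interleaved. With TMM scaling, INCENP also had both treated libraries below both untreated ones. None of the 4 passed the test, and their median log2 fold changes were -0.53 and -0.42 with and without untreated replicate 2.

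In the anaphase group, UBE2C (the ubiquitin-conjugating enzyme that works with the anaphase-promoting complex), PTTG1 (securin) and ESPL1 (separase, which cuts cohesin) had log2 fold changes of -0.59, -0.93 and -0.81 with 4 libraries. These came largely from untreated replicate 2. PTTG1 had 62.3 and 130 CPM in untreated cells and 54.4 and 58.2 CPM in treated cells, and without that library its log2 ratio shrank to -0.29 (standard error 0.24). For ESPL1 the value without it was -0.22, and for UBE2C -0.077. The group median accordingly moved from -0.87 to -0.26.

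The spindle checkpoint genes went the opposite way with 4 libraries. BUB1, a checkpoint kinase at the kinetochore, had 78.4 and 48.6 CPM in untreated cells and 69.4 and 93.4 CPM in treated cells. BUB1B (BubR1) had 63.4 and 16.8 CPM against 56.8 and 68.2 CPM. For BUB1, BUB1B, BUB3, MAD2L1 and TTK alike, untreated replicate 2 held the lowest value of the 4 libraries, as it did for 21 of the 43 members (all genes: 45%). Their median log2 fold change was 0.26 with all libraries and -0.097 without that one, and none passed the edgeR test in either fit.

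Among kinetochore and centromere genes, CENPA, the centromeric histone H3, had 30.2 and 20.1 CPM in untreated cells and 26.3 and 36.5 CPM in treated cells. CENPE, a kinesin that carries chromosomes to the metaphase plate, had 14.5 and 6.20 CPM in untreated cells and 20.8 and 32.6 CPM in treated cells. Both treated libraries were above both untreated ones, and CENPE had the highest log2 fold change of all members with 4 libraries, 1.20 (standard error 0.56, unadjusted edgeR p-value 0.0784). Without untreated replicate 2 it was 0.73 (standard error 0.27), with an adjusted p-value of 0.0834 in edgeR that became 0.0302 with scaling by column totals and 0.0432 with offsets for GC content. CENPF, NDC80 and NUF2 also had both treated values above both untreated ones in CPM. With TMM scaling this held for NDC80 but not for CENPF and NUF2.

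The kinesins split. KIF11, the motor that separates the spindle poles, had 56.9 and 27.9 CPM in untreated cells and 55.4 and 77.7 CPM in treated cells. KIF20A, which acts at the central spindle, had 105 and 128 CPM against 76.2 and 80.0 CPM, with log2 fold changes of -0.73 (standard error 0.31) and, without untreated replicate 2, -0.57 (standard error 0.23, edgeR adjusted p-value 0.117). KIF2C, which removes tubulin at the centromere, was also lower in both treated libraries than in both untreated ones. KIF14, KIF18A and KIF20B showed the reverse order in CPM, but KIF18A did not with TMM scaling. KIF20B moved from a log2 fold change of 0.95 with 4 libraries to 0.27 without untreated replicate 2, where it had only 7.51 CPM. None of the 7 passed the test.

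TPX2, which activates AURKA on the spindle, had 262 and 202 CPM in untreated cells and 228 and 235 CPM in treated cells, the treated values lying between the untreated ones. HMMR, DLGAP5 and ASPM, also of the spindle, had log2 fold changes of -0.18, -0.21 and 0.24 without untreated replicate 2. In cytokinesis, ECT2, the activator of RhoA, had 68.3 and 31.4 CPM against 67.2 and 94.4 CPM, and ANLN, the scaffold of the contractile ring, had 247 and 68.4 CPM against 245 and 338 CPM. For both, untreated replicate 1 and doxorubicin replicate 1 were nearly equal, untreated replicate 2 was the lowest and doxorubicin replicate 2 the highest. Their median log2 fold change was 0.62 with 4 libraries and 0.089 without untreated replicate 2.

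NUSAP1, SPC25 and PRC1 had few reads. NUSAP1 had only 4 and 17 counts in untreated cells and 16 and 5 counts in treated cells, which gives the highest log2 fold change of all members without untreated replicate 2, 1.44, with a standard error of 1.01. SPC25 had 8 to 14 counts per library. PRC1 had 2.86 to 6.03 CPM. In GENCODE release 44, NUSAP1 overlaps OIP5-AS1 and a protein-coding gene on the same strand. PRC1 overlaps a protein-coding gene on the same strand, and SPC25 overlaps NOSTRIN and G6PC2 on the opposite strand. Only these 3 genes were searched for overlaps, by gene span, and any effect on their counts was not tested. Per kilobase of exon, the highest mean level over the 4 libraries was that of CDC20, at 113 CPM per kb, followed by CCNB1 at 86.7. CENPE was the lowest of the other 40 genes, at 1.87 CPM per kb.

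Across the members, both treated libraries lay below both untreated ones in CPM for 11 of 43 (all genes: 11.5%), namely AURKA, AURKB, BIRC5, CDCA8, KIF20A, KIF2C, CDC20, PTTG1, ESPL1, FOXM1 and MKI67. The reverse order was seen for 9 (all genes: 30.3%). Scaling by TMM factors, as in the fits, gave 18 members below (all genes: 17.9%) and 5 above (all genes: 21.3%). Against untreated replicate 1 alone, both treated values were below for 17 members in CPM (all genes: 24.7%) and for 26 with TMM (all genes: 37.5%). In each of these 4 counts the share of members in the lower order was above the share of all genes, by description and with no test of the list. The untreated replicates were at least 2-fold apart in 10 of 43 members (23.3%; all genes: 43.5%) and the doxorubicin replicates in 1, which was NUSAP1.

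The size of many members' values, and the direction of some, depended on the untreated library chosen as reference. Without untreated replicate 1, a fit that shares its doxorubicin libraries with the one above, 28 of 43 members had an edgeR adjusted p-value under 0.05, against 58% of all genes tested. Of these, 12 also passed the fold threshold. The 3 lower ones (all genes: 23.2%) were PRC1, PTTG1 and ESPL1. The 9 higher ones (all genes: 21.2%) were BUB1B, CENPE, CENPF, NUF2, KIF11, KIF14, KIF20B, ECT2 and ANLN. CDC20 stood at -0.94 (standard error 0.22) against untreated replicate 2 and at -0.90 against untreated replicate 1, while CDC25B stood at -0.093 and -0.65 and FOXM1 at -0.48 and -0.71.

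**Figure D3:**
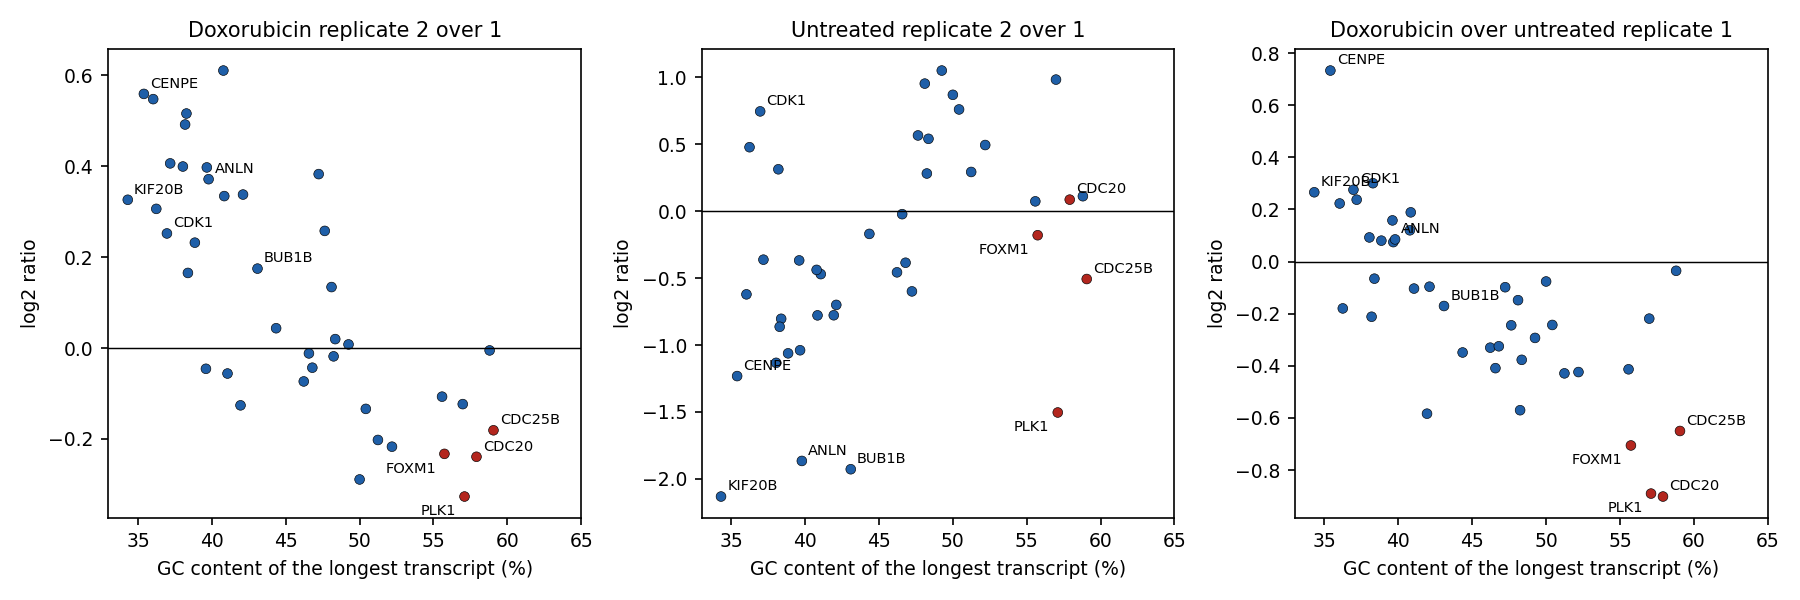
Log2 ratio between libraries against the GC content of each gene's longest transcript (%), for the 41 members with at least 50 counts in every library: doxorubicin replicate 2 over 1, untreated replicate 2 over 1 (both ratios of TMM-scaled CPM), and the edgeR log2 fold change without untreated replicate 2. Red points are CDC20, PLK1, FOXM1 and CDC25B, all at the GC-rich end. In the left panel the ratio between replicates of the same treatment also falls with GC content (r = -0.78).

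The members differed along the base composition of their transcripts, which was examined after the values were seen. For the 41 members with at least 50 counts in every library, GC content ran from 34.3% to 59.1%. All 20 members with a GC content of at least 45% had a log2 fold change below 0 without untreated replicate 2 (median -0.35), as did 5 of the 7 between 40% and 45% (median -0.10) and 3 of the 14 under 40% (median 0.13). The ratio of treated to untreated replicate 1 correlated with GC content at r = -0.75 (rho = -0.76) across these 41 genes, which share their libraries and are not independent, and at only r = -0.15 (rho = -0.22) across 10859 genes. The ratio of the doxorubicin replicates to each other, where treatment was the same, correlated with GC content at r = -0.78 across the 41 members and at r = -0.53 across 10859 genes. CDC20, PLK1, FOXM1 and CDC25B lay at 55.7% to 59.1% GC. When library offsets that follow GC content were put into the fit without untreated replicate 2, these 4 remained lower at -0.78, -0.77, -0.57 and -0.53, with adjusted p-values in edgeR from 1.28e-06 to 0.00211, CCNB1 (-0.61) and KIF20A (-0.50) fell as well, and CENPE rose by 0.54, which makes 7 members past the adjusted p-value (all genes: 14.7%). The offsets follow GC content over all genes, where the treated to untreated ratio correlated at r = -0.15, so a trend particular to the members would remain. The adjusted p-values of that fit rest on the spread between the 2 doxorubicin libraries, whose ratio also followed GC content. Their size with offsets is therefore no measure of added evidence. With 4 libraries and the same offsets, no gene was called.

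The members were also split by the elements in their promoters. The 30 with TTTGAA or TTCGAA and counts had a median log2 fold change of -0.098 without untreated replicate 2, and the 6 without (CCNB1, AURKB, CENPE, KIF20A, KIF2C and PTTG1) had -0.35. For CCAAT the order was the other way, with -0.20 for the 30 members that hold it and 0.083 for the 6 that do not (BUB1B, CENPE, NDC80, NUF2, KIF2C and ANLN). These are medians of chosen genes and carry no test. Because other forms of the CHR were not searched for, the first split is by match and not by presence of the element.

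Other genes of the pathway were taken from lists by function. Of 73 other mitotic genes tested, 47 were below 0 without untreated replicate 2 (64.4%; all genes: 45.7%), with a median log2 fold change of -0.16. The only gene of that list past the adjusted edgeR test (all genes: 1.73% lower, 4.61% higher) was KIFC1, a minus-end kinesin, higher by 1.87. It had 1.82 and 0.485 CPM in untreated cells and 13.8 and 0.435 CPM in treated cells, so that value comes from doxorubicin replicate 1. Of 16 condensin and cohesin genes, which shape and hold chromosomes, 13 were below 0 (81.2%; median -0.099), and of 17 genes of the anaphase-promoting complex 7 were below 0 (41.2%; median 0.033), with none past the test in either list. In the 4-library fit these 3 lists had medians of -0.018, 0.17 and 0.13, and none of their genes passed.

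The 13 genes of the DREAM and MuvB complexes had a median of 0.11 without untreated replicate 2, and none passed the adjusted test. RBL2 (p130), the pocket protein of DREAM, had 22.2 and 8.62 CPM in untreated cells and 37.0 and 42.9 CPM in treated cells, both treated values above both untreated ones (log2 fold change 0.70, edgeR adjusted p-value 0.083). MYBL2 (B-MYB) had 374 and 352 CPM in untreated cells and 293 and 274 CPM in treated cells, the opposite order (-0.55, edgeR adjusted p-value 0.11).

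Of 8 genes through which p53 is known to hold cells in G2, 2 rose and 2 fell without untreated replicate 2 (all genes: 4.61% higher, 1.73% lower). GADD45A, an inhibitor of CDK1-cyclin B, rose by 1.67 on the log2 scale, and CDKN1A (p21) rose by 1.16 from 380 CPM in untreated replicate 1 to 1003 and 880 CPM with doxorubicin. Untreated replicate 2 held 866 CPM of CDKN1A by column totals, just under both treated values. The TMM factors of the 4-library fit were 0.951 for that library and 1.02 and 1.09 for the treated ones. They raise it relative to both, so this order depends on the scaling. Untreated replicate 2 also held 277 CPM of GADD45A, above both treated values of 167 and 242 CPM, and with 4 libraries none of the 8 passed. SFN (14-3-3 sigma), which keeps CDK1-cyclin B out of the nucleus, had 252 and 723 CPM in untreated cells and 173 and 153 CPM in treated cells, with no overlap. It fell by 0.77 on the log2 scale without untreated replicate 2 (adjusted p-value 0.0121 in edgeR) and stood at -1.73 with 4 libraries (unadjusted edgeR p-value 0.0202). RPRM (reprimo), another member of that list, was at 4.30 and 1.66 CPM in untreated cells and 1.72 and 0.617 CPM in treated cells and fell by 1.97. The 47 DNA replication genes, of the preceding phase, had a median of -0.31 without untreated replicate 2, with 43 below 0 (91.5%; all genes: 45.7%) and 3 past the adjusted test (ORC1, UHRF1 and MCM5, all lower; all genes: 1.73%). With 4 libraries their median was -0.57. Whether the mitotic and replication lists differed from each other was not tested.

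**Figure D4:**
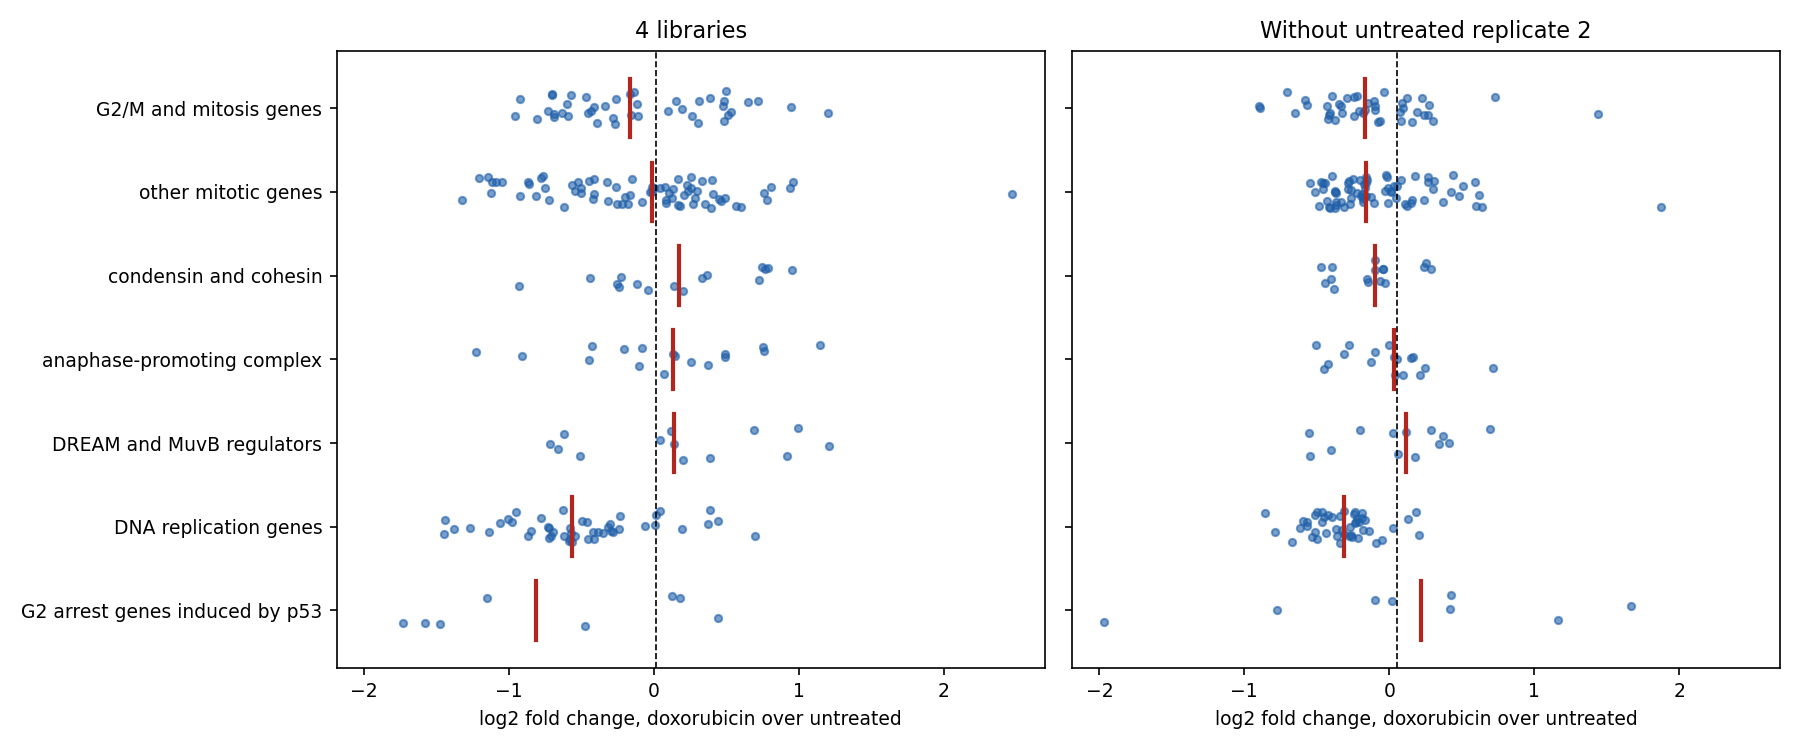
Log2 fold change of doxorubicin over untreated (horizontal axis) for each gene of the mitotic set and of 6 related lists, with 4 libraries (left) and without untreated replicate 2 (right). Points are genes, red bars are list medians and the dashed line is the median of all genes tested (0.013 and 0.054). The mitotic set centres on -0.16 and -0.17, DNA replication genes on -0.57 and -0.31, and the p53-induced G2 arrest genes lie on either side of 0.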

How the data were processed

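Poly-A RNA of 4 libraries was sequenced. According to the methods, FastQC and Cutadapt served for read filtering, HISAT2 for alignment and HTSeq for counting, and the authors deposited raw counts per gene without normalization. The header names GENCODE release 31 (basic), and the build is hg38. Strandedness and versions are not given in the sources used here.

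The members and gene lists were chosen with earlier results of these data known. CPM is count divided by column total. Doxorubicin was compared with untreated cells by edgeR 4.0.16 (R 4.3.3; filterByExpr, TMM, quasi-likelihood test, prior count 0.125, Benjamini-Hochberg adjustment over all genes tested), with 4 libraries and without untreated replicate 2. Called genes had an adjusted p-value below 0.05 and an absolute log2 fold change of 1 or more. CPM is given for the first gene of each role, for members with an unadjusted p-value under 0.05 with 4 libraries or called, and for those with the highest or lowest fold change; further members were added after their values were seen. Positions, exon lengths and GC content came from GENCODE release 44 and promoters from RefSeq. DESeq2 1.42.0, the edgeR likelihood ratio test, other scalings, filters, a replicate block, left-out libraries and GC offsets (lowess, chosen after seeing the data) were alternatives. Scripts were tested on simulated data: with 4 libraries, a dispersion of 0.01 and 17085 genes, 48 of 50 genes lowered by 2 on the log2 scale were called, and 25 of 50 lowered by 1. At a dispersion of 0.2, near the common dispersion of 0.236 of the 4 libraries, 0 of 50 were called at either size (16953 genes). Without untreated replicate 2, where the common dispersion was 0.0227, 39 and 18 of 50 were called at 0.01 (17620 genes), and 2 and 0 of 50 at 0.2 (17681 genes). Deviations of libraries that share a number correlated at 0.0219.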

Additional observations from a re-analysis of the deposited data

How the results depend on the processing

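With 4 libraries, 0 genes were called by the edgeR quasi-likelihood test under every scaling and filter tried; DESeq2 called 89 genes, the likelihood ratio test 64 and the replicate block 20, none of them a member. Leaving out 1 library gave 0 to 8697 genes and 0 to 12 members called; the highest counts came without untreated replicate 1. The samples share only replicate numbers, and with the replicate block every member kept its direction. The members' median of -0.16 moved to -0.22 with RLE factors, -0.0048 with column totals, -0.29 with DESeq2 and -0.26 with GC offsets, and lay between -0.17 and -0.026 with 1 library left out. Column totals moved the median of all genes to 0.17, and relative to all genes the members' median lay between -0.17 and -0.25 under these 4 settings, but at -0.017 with no filter on low counts and at -0.051 to -0.23 with 1 library left out. Without untreated replicate 2 it was -0.022 with column totals (all genes: 0.20).

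Without untreated replicate 2, members past the adjusted p-value alone numbered 4 (0 with the fold threshold) and 7 with GC offsets. The likelihood ratio test gave 5, adding CCNB1. CDC25B missed it with RLE factors, column totals, no filter and DESeq2, and FOXM1 with column totals. CDC20 and PLK1 passed it under each of these settings.

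Signs turned for small values under other scalings and GC offsets, and for larger ones too with 1 library left out. With 4 libraries, column totals gave INCENP 0.047, KIF4A 0.020 and NUSAP1 0.029, and GC offsets gave INCENP 0.017, BUB1 -0.012, BUB3 -0.15 and MAD2L1 -0.033. Without untreated replicate 2, column totals gave INCENP 0.11, BUB1 0.054, BUB3 0.043, MAD2L1 0.083, CENPA 0.052 and UBE2C 0.069, and GC offsets gave INCENP 0.088, NUF2 -0.026, KIF11 -0.021, ECT2 -0.039, ANLN -0.0080 and UBE2C 0.0095. With 1 library left out, the sign of 12 members turned: CDK1 ran from -0.42 to 0.28, CCNB1 from -0.58 to 0.24, PLK1 from -0.89 to 0.66, BUB1 from -0.097 to 0.65, BUB1B from -0.17 to 1.81, BUB3 from -0.10 to 0.42, MAD2L1 from -0.066 to 0.79, CENPA from -0.099 to 0.55, SPC25 from -0.66 to 0.14, KIF4A from -0.33 to 0.18, TPX2 from -0.33 to 0.11 and NUSAP1 from -0.996 to 1.44. The cause of these turns was not tested. Depth limits NUSAP1, SPC25 and PRC1, and with 2 libraries a group an exact permutation test cannot go below 0.333.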
